A study of Mus musculus with 6 samples.

Results

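The genes of 9 transcription factors that direct myeloid fate were followed in mouse bone marrow cells labelled as long-term haematopoietic stem cells (LT-HSCs), 5 of them from the C/EBP family (Cebpa, Cebpb, Cebpd, Cebpe and Cebpg) and the others Gfi1, Spi1, Irf8 and Zeb2. They were taken by name from the 55487 genes of the deposited table, each name matched 1 row, and all 9 passed the filter on low counts that left 15419 genes. The data were bulk RNA-seq, with 3 libraries from cells labelled Mmrn1-low and 3 from cells labelled Mmrn1-high, and every library carried the genotype label Mmrn1-GFP type, so there was no group without the reporter. Mmrn1 encodes multimerin 1, a protein of platelets and endothelium. The sources used here give neither the surface markers of the sort nor the age or treatment of the mice. Nor do they state that replicates came from separate mice, so the p-values reflect variation among these 6 libraries and that variation may be technical.

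C/EBP proteins bind DNA as pairs through a basic leucine zipper. C/EBPα, with PU.1 (the product of Spi1), opens the myeloid programme in progenitors, and C/EBPε drives the later granule stages of neutrophils. Gfi1 is a zinc finger repressor that favours granulocytes over monocytes and restrains stem cell division, Irf8 directs monocytes and dendritic cells, and Zeb2 is a zinc finger and homeodomain repressor used in dendritic cell and stem cell differentiation.

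The promoters of Cebpa and Cebpg are shown because these neighbours, on opposite strands of GRCm38 chromosome 7 with 62.7 kb between them, differed between the groups in opposite directions. That of Irf8 is shown because its level varied between the libraries within each group. RefSeq promoters (GRCm38.p6) were found for 6 of the 9 genes, and none was matched for Cebpd, Cebpe or Spi1. Each window runs from 250 to 11 bases before the RefSeq start site, on the gene's strand and 5′ to 3′, and capitals mark the motifs found. The first is chr7:35119043-35119282 (+), the second chr7:35056577-35056816 (-) and the last chr8:120736108-120736347 (+).
Cebpa: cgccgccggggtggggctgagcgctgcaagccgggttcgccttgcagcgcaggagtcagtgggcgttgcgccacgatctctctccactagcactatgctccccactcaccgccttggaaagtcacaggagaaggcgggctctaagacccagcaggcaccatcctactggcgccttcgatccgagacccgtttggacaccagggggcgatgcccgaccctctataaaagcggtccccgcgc
Cebpg: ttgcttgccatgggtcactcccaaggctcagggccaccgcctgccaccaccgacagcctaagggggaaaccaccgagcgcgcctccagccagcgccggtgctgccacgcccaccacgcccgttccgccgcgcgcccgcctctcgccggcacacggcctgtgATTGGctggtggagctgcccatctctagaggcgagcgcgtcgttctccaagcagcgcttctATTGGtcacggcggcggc
Irf8: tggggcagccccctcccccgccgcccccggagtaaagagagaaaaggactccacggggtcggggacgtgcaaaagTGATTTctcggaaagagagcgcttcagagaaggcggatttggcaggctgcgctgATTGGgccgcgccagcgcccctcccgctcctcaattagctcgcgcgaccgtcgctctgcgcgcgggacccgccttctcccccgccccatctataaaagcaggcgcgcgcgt
Both strands were searched for TTGCNNAA (C/EBP), GAGGAA (PU.1), AAATCA (GFI1), CAGGTG (ZEB), GAAANNGAA (IRF) and CCAAT. Of 32851 RefSeq windows of the same length, 9.29% held TTGCNNAA, 22.3% GAGGAA, 12.1% AAATCA, 16.6% CAGGTG, 6.82% GAAANNGAA and 33.0% CCAAT. The Cebpa window held none of the 6. The Cebpg window held CCAAT on the reverse strand at 2 places, starting 89 and 28 bases before the start site. The Irf8 window held AAATCA on the reverse strand, starting at base -175, and CCAAT on the reverse strand at -121. In the Gfi1 window TTGCNNAA started at -143 and CAGGTG, on the reverse strand, at -42. The RefSeq start site used for Gfi1 lies 231 bases inside the annotated gene, so both of these matches fall within that gene. In the Zeb2 window TTGCNNAA started at -221 and GAGGAA at -118, with CCAAT at -238 (reverse strand) and -89. The Cebpb window held none of the 6 motifs. A match describes the letters of a window and not a binding site.

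Between the groups, 6 of the 9 factors were lower in Mmrn1-high cells (Cebpe, Gfi1, Cebpd, Cebpa, Spi1 and Cebpb), 1 was higher (Cebpg), and Irf8 and Zeb2 did not pass the test. The test was edgeR's quasi-likelihood test on counts, with Benjamini-Hochberg adjustment over all 15419 genes and a threshold of 0.05. The same test called 61.2% of all genes, 30.5% lower and 30.7% higher, so a call alone is common here and the sizes carry more information. The 3 libraries of each group did not overlap for 7 of the 9 factors, against 67.8% of all genes tested. With scaling by library size alone, 66.01% of the called genes were higher, against 50.2% with the TMM scaling used here. Levels below are CPM, that is, counts scaled to a common library total with TMM factors for composition, and log2 fold changes are Mmrn1-high minus Mmrn1-low with their standard error (SE). In bulk RNA, fewer cells of a type and less RNA per cell cannot be told apart.

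**Figure D1:**
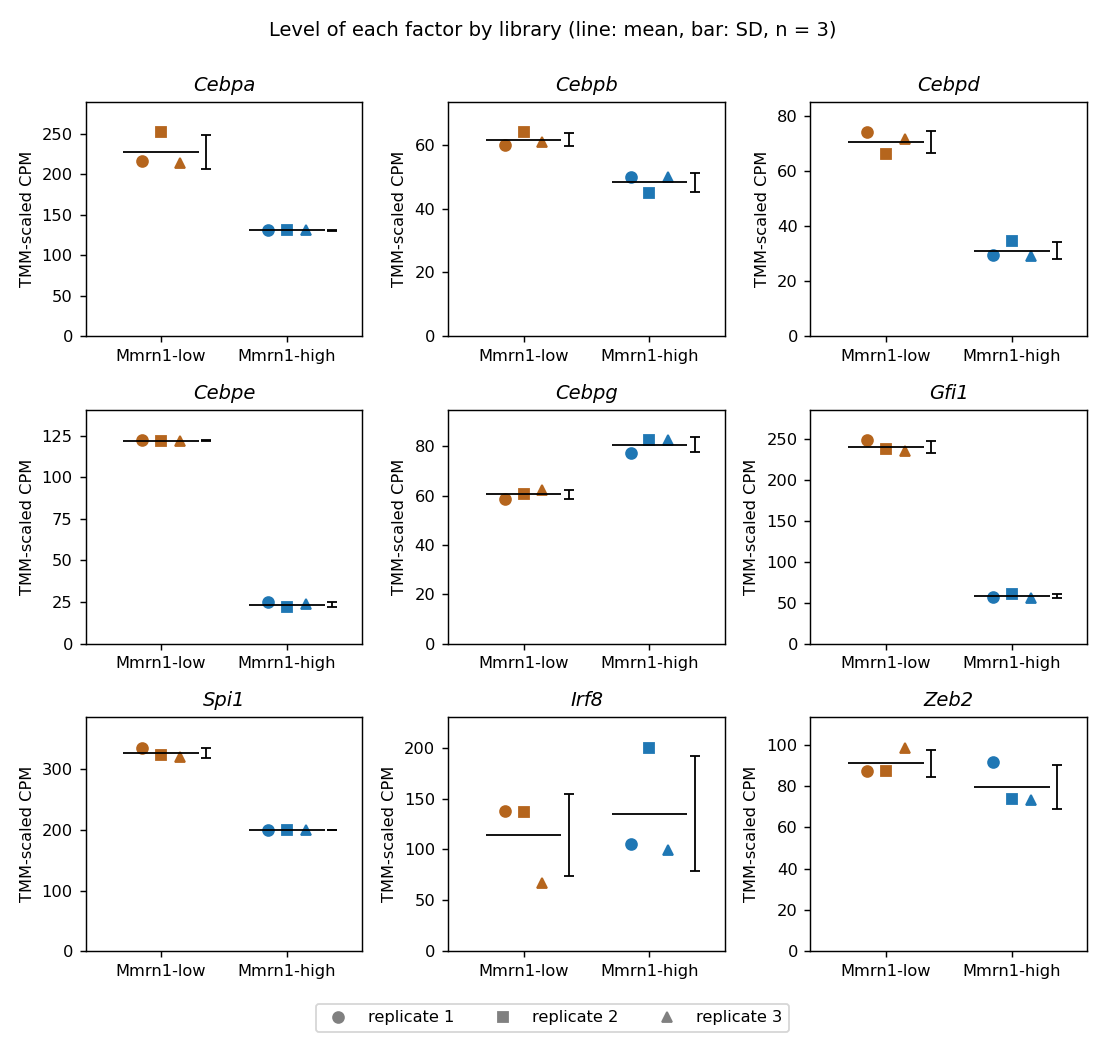
Level of the 9 factors in each library, as TMM-scaled CPM on axes that start at 0. Points are libraries, shaped by replicate number, lines are group means and bars are SD (n = 3). The groups are apart for all factors but Irf8 and Zeb2, and for Irf8 the Mmrn1-low replicate 3 and the Mmrn1-high replicate 2 stand off from their groups.

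The libraries held 11595104 to 30909990 counts, and the 2 deepest, Mmrn1-low replicate 3 and Mmrn1-high replicate 2, had 30180151 and 30909990. Mmrn1, the gene behind the labels, went from 5.69 ± 0.112 to 10.0 ± 1.33 CPM (SD, n = 3), with a log2 fold change of 0.82 ± 0.12 SE (edgeR adjusted p = 4.85e-04). Of 12 long-term stem cell markers, 10 rose and 0 fell, and the summed level was 422 to 449 CPM against 654 to 690 CPM. The genes Cd34, Flt3 and Cd48, which a long-term stem cell gate usually leaves out, summed to 586 to 610 CPM and, in Mmrn1-high libraries, to 1501 to 1537 CPM. Markers of tissue macrophages moved with the factors that fell, with 12 of 13 tested markers falling and 0 rising. Their sum was 262 to 269 CPM against 49.5 to 52.9 CPM. All 13 early granulocyte genes, described below, fell as well, with a much larger sum of 26918 to 28231 CPM against 4453 to 4528 CPM. All 13 genes of maturing neutrophils, also described below, rose. Plasma cell markers, 4 lower and 1 higher of 8, summed to 1138 to 1271 CPM against 684 to 737 CPM. Plasmacytoid dendritic cell (5 of 5 tested), B cell (8 of 9) and T and NK cell markers (4 of 5) rose in Mmrn1-high cells. Mast cell markers (4 of 6) and megakaryocyte markers (2 of 4) rose too, with 0 lower in any of these lists. Lck, from 10.2 to 37.5 CPM, made up most of the T and NK cell sum (15.4 to 17.9 against 49.5 to 53.3 CPM). Of the same list, Cd8a did not pass. Cd3e, Cd3d and Cd3g were removed by the filter, with group means of 0.259 to 0.561 CPM. Endothelial markers were split with 2 higher and 2 lower of 5, and red cell markers with 1 higher and 2 lower of 8. The part of any of these cells in the values below was not tested.

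Among the C/EBP genes, the largest difference was that of Cebpe (GRCm38 chromosome 14, 54710360 to 54712174), the factor of late granulocyte stages. Its level was 122.3, 121.8 and 121.7 CPM in Mmrn1-low replicates 1 to 3, against 24.8, 21.9 and 23.8 CPM in Mmrn1-high replicates 1 to 3. All Mmrn1-high libraries were far below all Mmrn1-low ones, and the spread within each group was small. The fall was 5.21-fold, a log2 fold change of -2.38 ± 0.05 SE (edgeR adjusted p = 2.58e-08). The fold change of Cebpe was among the lowest 0.869% of all genes tested, and the gene shares no exon bases with another annotated gene.

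Cebpd (chromosome 16, 15887286 to 15891031), which responds to cytokines and inflammation, was 74.1, 66.1 and 71.6 CPM in Mmrn1-low replicates, and 29.3, 34.5 and 29.1 CPM in the Mmrn1-high ones. The groups did not overlap, and the log2 fold change was -1.18 ± 0.08 SE (edgeR adjusted p = 6.02e-06), a 2.27-fold fall. Cebpd shares 562 exon bases with the antisense gene Spidr, which had 5495 counts over all libraries. Since the strand setting of the counting is not given, reads there cannot be assigned with certainty.

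Cebpa (chromosome 7, 35119293 to 35121928), which commits progenitors to the granulocyte and monocyte lines, was 217, 252 and 214 CPM in Mmrn1-low replicates, and 131, 131 and 131 CPM in the Mmrn1-high ones. The Mmrn1-high libraries were nearly equal (SD 0.469), while Mmrn1-low replicate 2 was the highest of its group. Its log2 fold change was -0.80 ± 0.06 SE (edgeR adjusted p = 2.19e-05), a fall of 1.74-fold. The antisense model Gm45091 shares 51 bases with Cebpa and had 58 counts over all libraries.

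Cebpb (chromosome 2, 167688915 to 167690418), a factor of emergency granulopoiesis and macrophages, was 60.2, 64.0 and 61.1 CPM in the Mmrn1-low replicates and 50.003, 44.9 and 49.98 CPM in the Mmrn1-high ones. The groups did not overlap, and the fall of 1.28-fold was the smallest of the 6 (log2 fold change -0.36 ± 0.06 SE, edgeR adjusted p = 9.3e-04). With library size alone it was -0.21, which also passed. Cebpb shares 312 of its 1504 exon bases with the antisense gene Tmem189, which had 3830 counts over all libraries. As for Cebpd, reads there cannot be assigned with certainty.

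Cebpg (chromosome 7, 35046422 to 35056573) was the single factor that rose. Its product has a zipper but no strong activation domain of its own and pairs with other bZIP proteins. The levels were 58.6, 60.6 and 62.5 CPM in Mmrn1-low replicates, and 77.2, 82.4 and 82.5 CPM in the Mmrn1-high ones. All Mmrn1-high libraries were above all Mmrn1-low ones, with a log2 fold change of 0.41 ± 0.05 SE (edgeR adjusted p = 1.15e-04), or 1.33-fold. With library size alone in place of TMM the direction was the same for Cebpg and for the 6 factors that fell, although that scaling moved the median of all genes up by 0.148 (log2).

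**Figure D2:**
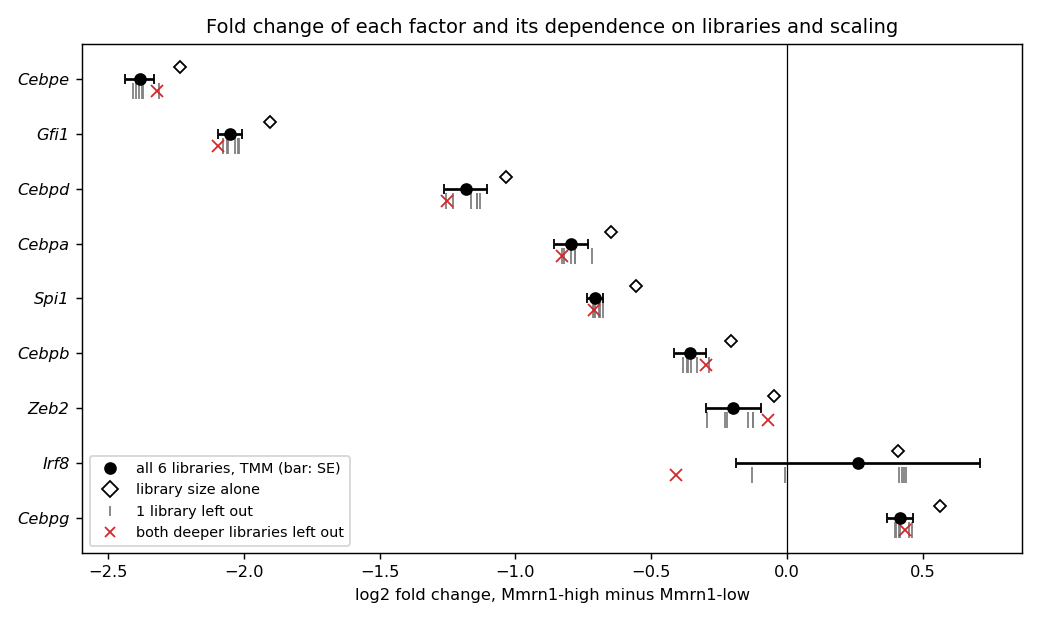
Log2 fold change (Mmrn1-high minus Mmrn1-low) of each factor. Black points are the fit of all 6 libraries with its SE, open diamonds use library size alone, grey ticks leave out 1 library each, and red crosses leave out both deeper libraries. Markers stay on 1 side of 0 for every factor but Irf8, which runs from -0.41 to 0.44.

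Counts per gene grow with length, so the make-up of the C/EBP transcripts was compared per length, as the authors' deposited FPKM (fragments per kilobase of gene, scaled to the library total). Over the 5 genes the summed FPKM was 201 ± 4.49 in Mmrn1-low and 101 ± 2.35 in Mmrn1-high cells (SD, n = 3). Cebpe went from 46.4% ± 1.07 of that sum to 19.6% ± 0.846, and its place as the leading C/EBP transcript went to Cebpb, at 19.4% ± 0.254 in Mmrn1-low and 33.3% ± 1.34 in Mmrn1-high cells. Cebpa held 22.4% ± 1.58 and 28.4% ± 0.716 in the same order. Cebpd kept a like share, 7.99% ± 0.623 and 7.71% ± 0.941. Cebpg, the one that rose, went from 3.75% ± 0.149 to 11.0% ± 0.571. These shares were given no test.

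The lengths behind the deposited FPKM count bases shared by overlapping exons more than once. The length they imply equalled the sum of all distinct annotated exons within 1% for 97.9% of 13383 genes, with a median of 1.331 times the merged exons. For Cebpa the implied length was 4787 bases against 2636 bases of merged exons, while for Cebpb and Cebpe they were equal. Over merged exons, Cebpe went from 38.5% to 15.3% of the C/EBP sum and Cebpg from 4.22% to 11.6%. On that scale Cebpa led in Mmrn1-high cells, at 40.3% against 26.0% for Cebpb, so which of these leads there depends on the length used. Cebpe led in Mmrn1-low cells on both scales.

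**Figure D3:**
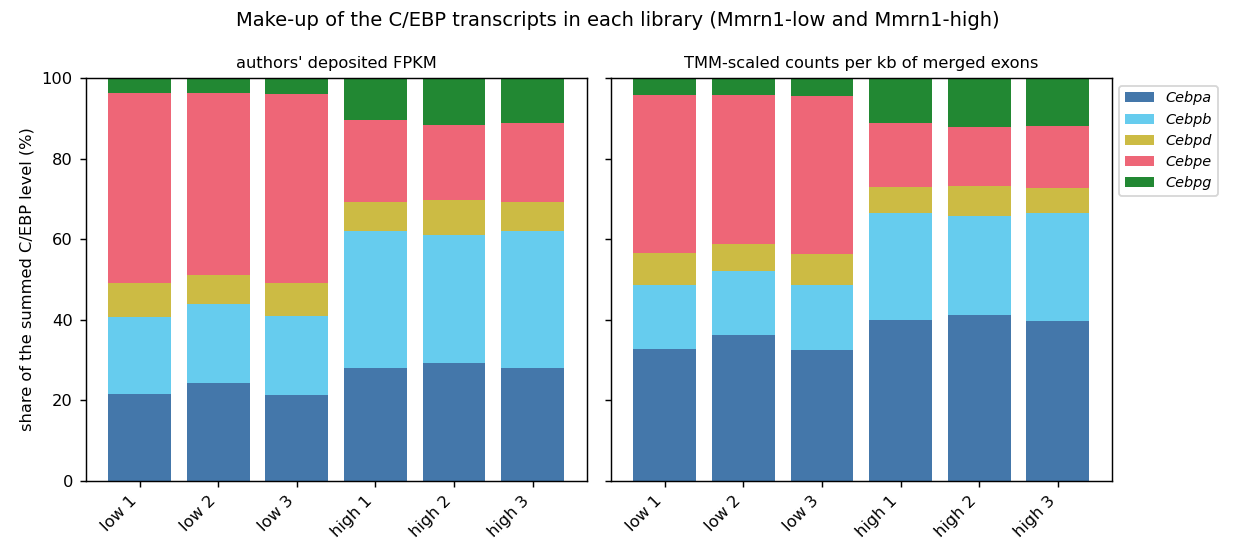
Share (%) of each C/EBP gene in the summed level per length of the 5 genes, in each library. Left, the authors' FPKM. Right, TMM-scaled counts per kilobase of merged exons. In both panels the Cebpe share is smaller and the Cebpg share larger in the 3 Mmrn1-high libraries, and the order of Cebpa and Cebpb in Mmrn1-high differs between the panels.

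Partners of C/EBP proteins and the Tribbles family, part of which sends C/EBPα to degradation, came next, with the remaining gene lists written from general knowledge. Of 11 tested genes of this kind, 4 rose and 1 fell in Mmrn1-high cells, and 6 did not pass. Over all genes tested 61.2% were called, 30.7% higher and 30.5% lower, so calls were not more frequent in this list. The same shares are the background of the list counts below. The median log2 fold change of this list was 0.20 against 0.005 over all genes tested. With library size alone, 7 were called higher and the median was 0.35, while it was 0.32 with no filter and 0.046 with the filter of 5 CPM in 3 libraries. Trib1, an adaptor for that degradation, rose to 37.0 ± 1.46 CPM (log2 fold change 1.30 ± 0.07 SE). Trib3 rose from 1.26 ± 0.255 to 4.77 ± 0.763 CPM and the stress factor Atf3 from 5.17 ± 1.22 to 36.2 ± 0.449 CPM. Atf5, a bZIP factor of stress responses, fell from 38.8 ± 4.45 to 16.4 ± 0.624 CPM (-1.23 ± 0.09 SE). Trib2, the relative best known for degrading C/EBPα, was 2.08 ± 0.223 and 2.83 ± 0.311 CPM and did not pass (edgeR adjusted p = 0.0576).

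Gfi1 (chromosome 5, 107716657 to 107726036) had the second largest fall of the 9. Its level was 249, 237 and 236 CPM in Mmrn1-low replicates, and 56.5, 61.0 and 56.2 CPM in the Mmrn1-high ones. The groups were wide apart, with a fall of 4.14-fold (log2 fold change -2.05 ± 0.04 SE, edgeR adjusted p = 2.04e-08). Its paralogue Gfi1b, a factor of red cells and megakaryocytes that Gfi1 is reported to repress, went the other way at lower levels, from 7.27 ± 0.803 to 14.7 ± 0.809 CPM (1.02 ± 0.11 SE, edgeR adjusted p = 6.91e-05). Gfi1 shares 101 exon bases with the antisense model A430072P03Rik.

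Of 12 tested genes reported as repressed by Gfi1, 9 rose and 1 fell, and the median log2 fold change was 1.07. The higher ones included the homeobox genes Hoxa9, from 35.6 ± 0.617 to 62.3 ± 1.35 CPM, and Meis1, from 33.2 ± 2.92 to 107 ± 2.09 CPM. Egr1, an immediate early factor, had the largest rise of the list (3.00 ± 0.05 SE). The one that fell was Csf1, the macrophage growth factor, at 14.5 ± 2.53 and 9.995 ± 0.687 CPM (-0.54 ± 0.13 SE, edgeR adjusted p = 0.0075). Hoxa9 and Meis1 are also stem cell genes, and the long-term stem cell markers were higher in the same libraries, as given above. The lists overlap, so their counts are not independent. Hoxa9, Meis1 and Egr1 are among the genes counted again below with the factors of other fates, and Gfi1b is counted again with the close relatives.

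Gfi1 and Zeb2 both act through corepressors, and of 14 tested genes of those complexes 3 rose, 4 fell and 7 did not pass. Calls were thus not more frequent than the 61.2% over all genes tested. The median log2 fold change was -0.0008, and above 0 (0.148) with library size alone. Rcor1, the CoREST scaffold, fell by 0.44 ± 0.03 SE on the log2 scale, from 175 ± 0.732 to 128 ± 2.31 CPM. Mbd3 (-0.52 ± 0.04 SE), Ctbp2 (-0.38 ± 0.07 SE) and Mta2 (-0.07 ± 0.02 SE) were the others that fell. Mta2 had the largest adjusted p of the 4 (edgeR adjusted p = 0.0362), and the count was 3 in most alternatives, among them DESeq2, library size alone and 5 of the 6 fits without a library. The genes Ctbp1 (0.14 ± 0.03 SE), Hdac2 (0.14 ± 0.05 SE) and Ajuba (0.57 ± 0.15 SE) rose. Kdm1a, the demethylase that Gfi1 recruits, was 105 ± 4.58 and 112 ± 4.93 CPM and did not pass (edgeR adjusted p = 0.154).

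Spi1 (chromosome 2, 91082390 to 91115756) had the highest mean level per length of the 9 factors in both groups, at 93.6 ± 2.07 and 63.6 ± 0.202 FPKM, although Cebpe was slightly above it in Mmrn1-low replicates 2 and 3. In CPM it was 335, 324 and 320 in Mmrn1-low and 199.8, 199.98 and 199.9 in Mmrn1-high replicates. The groups did not overlap and the Mmrn1-high libraries were almost equal. The fall was 1.63-fold, with a log2 fold change of -0.71 ± 0.03 SE (edgeR adjusted p = 3.6e-07).

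Myeloid genes that PU.1 binds did not move one way. Of 22 tested, 6 rose and 10 fell, and the median log2 fold change was -0.14 (0.013 with library size alone, and -0.026 and -0.028 on FPKM). Parts of the phagocyte oxidase fell, Ncf1 from 508 ± 7.66 to 263 ± 5.04 CPM, Ncf4 from 156 ± 1.83 to 84.4 ± 1.58 CPM and Cybb from 251 ± 2.36 to 169.5 ± 2.15 CPM. Lyz2, the lysozyme of phagocytes, rose from 349.9 ± 6.68 to 711 ± 15.3 CPM. Macrophage markers, whose sum was lower in the same libraries, are carried by cells that also express many of these genes, and their part was not tested.

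Cytokine receptors of the myeloid lines were mixed too, with 5 of 11 higher and 2 lower and a median log2 fold change of 0.10 (0.25 with library size alone, 0.23 with the filter of 5 CPM, and 0.31 and 0.33 on FPKM). Flt3, the receptor of early progenitors, rose most (1.81 ± 0.03 SE), followed by Csf2rb2 (1.03 ± 0.04 SE), and Kit rose by 0.26 ± 0.03 SE. The ones that fell were Csf2ra, the GM-CSF receptor chain (-1.12 ± 0.09 SE), from 121 ± 9.76 to 55.7 ± 6.32 CPM, and Csf3r, the G-CSF receptor (-0.31 ± 0.03 SE), from 260 ± 6.52 to 209 ± 6.16 CPM.

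The granule genes of the neutrophil line differed in direction by stage. All 13 primary granule and early granulocyte genes, which C/EBPα and its partners switch on, were lower in Mmrn1-high cells (median log2 fold change -2.26), and their summed level was 26918 to 28231 CPM against 4453 to 4528 CPM. Of these, Ms4a3 went from 939 ± 7.13 to 132 ± 5.27 CPM and Nkg7 from 449 ± 3.11 to 102 ± 1.18 CPM. Mpo and Prtn3 were the others of the 4 with the smallest p (-2.69 ± 0.03 SE and -2.67 ± 0.03 SE). All 13 secondary granule and maturing neutrophil genes were higher (median 0.83), with a sum of 3445 to 3570 CPM against 5525 to 5870 CPM, while Cebpe, a factor that drives that stage, was 5.21-fold lower. Ngp, a neutrophil granule protein, went from 597 ± 29.7 to 1182 ± 5.62 CPM, Mmp9 from 87.3 ± 0.649 to 196 ± 2.11 CPM, Mmp8 from 43.9 ± 1.23 to 105 ± 2.91 CPM and Retnlg from 47.9 ± 2.55 to 127 ± 3.62 CPM. Whether the RNA of both stages came from the labelled cells or from others in the samples was not tested.

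**Figure D4:**
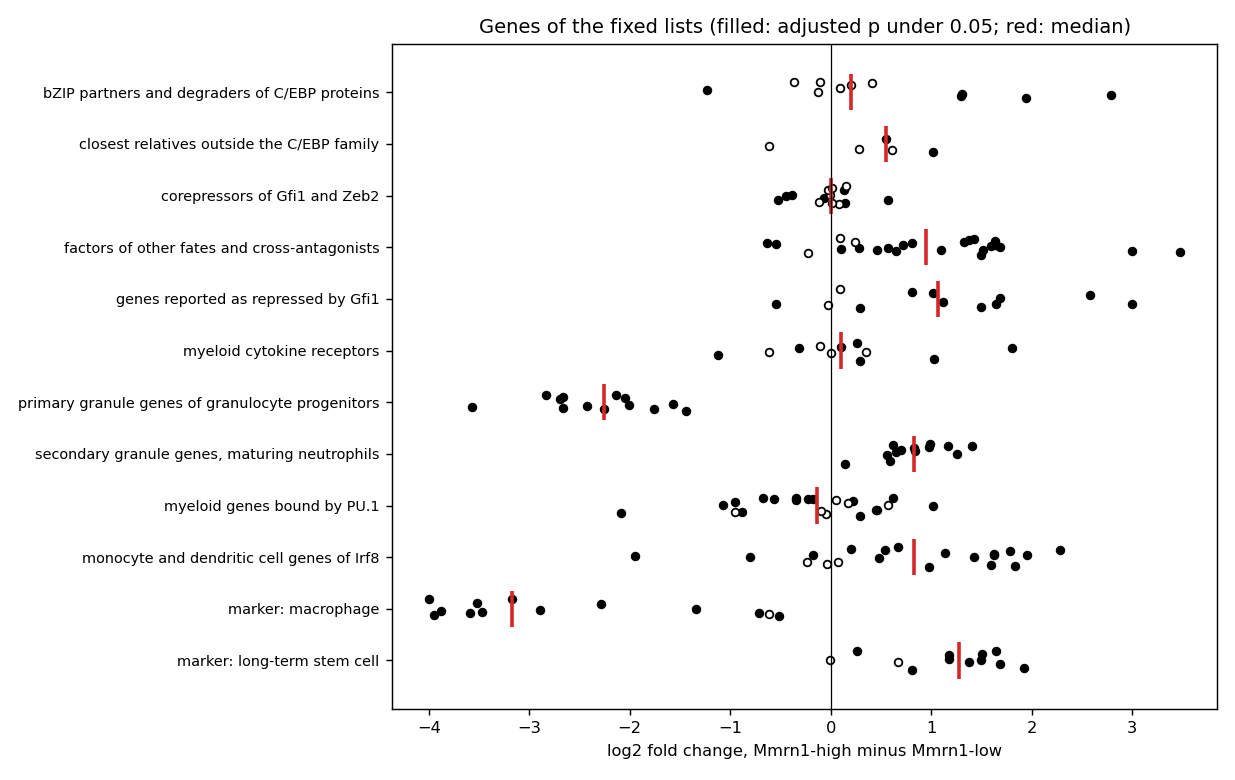
Log2 fold change (Mmrn1-high minus Mmrn1-low) of every tested gene in the 10 pathway lists and in 2 marker lists. Filled points passed an adjusted p under 0.05 in edgeR, open points did not, and red lines are medians. All 13 primary granule genes lie below 0 and all 13 secondary granule genes above it, while the genes bound by PU.1 lie on both sides.

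Irf8 (chromosome 8, 120736358 to 120756694) did not pass the test, and its level varied within the groups as well as between them. It was 137, 137 and 67.5 CPM in Mmrn1-low replicates, and 105, 199.9 and 99.4 CPM in the Mmrn1-high ones. Mmrn1-low replicate 3 was the lowest of all 6 and Mmrn1-high replicate 2 the highest, so the groups overlapped. These are the 2 deepest libraries, and counting error is small, since they held 1937 and 6483 Irf8 counts. The log2 fold change was 0.26 ± 0.45 SE (edgeR adjusted p = 0.657), with a 95% interval from -0.95 to 1.47, so differences in either direction remain within it. The spread within groups, an SD of 0.572 on the log2 scale, was larger than for 98.5% of the 7710 genes at or above the median level.

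Without both deeper libraries, an alternative chosen after the Irf8 values had been seen, the remaining 137 and 137 CPM of the Mmrn1-low libraries stood above the 105 and 99.4 CPM of the Mmrn1-high ones. Irf8 was then lower in Mmrn1-high cells, at -0.41 (edgeR adjusted p = 8.63e-04). Between the deeper libraries alone, 1 of each group and so with no test, Irf8 was 2.96 times as high in the Mmrn1-high one. The other 8 factors had the same direction within the deeper pair as within the other 4 libraries, from -2.48 for Cebpe to 0.40 for Cebpg in the deeper pair and from -2.33 to 0.42 in the rest. The gene nearest in pattern to Irf8 was Tnfaip3, which encodes the NF-κB inhibitor A20, at 38.1, 41.6 and 17.6 CPM in Mmrn1-low replicates, and 37.1, 79.3 and 32.3 CPM in the Mmrn1-high ones. Of the 7710 genes at or above the median level, 4 were lower in the deeper Mmrn1-low library and higher in the deeper Mmrn1-high one. Each step was over 0.9 on the log2 scale against the mean of the other libraries of the group. Irf8 and Tnfaip3 were among the 4, and for both the deeper libraries stood apart from each other library of their group. Scamp4, also among the 4, was at 43.4, 45.6 and 11.1 CPM in Mmrn1-high replicates 1 to 3, so there replicate 2 was close to replicate 1. What sets these libraries apart for Irf8 was not tested.

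Taken as a sum, in which the most abundant genes weigh most, the monocyte and dendritic cell genes tied to Irf8 did not share that library pattern. Single genes of the list were not compared in this way. Their summed level was 0.958 times the mean of the other Mmrn1-low libraries in Mmrn1-low replicate 3, where Irf8 was at 0.492 times, and 0.948 times in Mmrn1-high replicate 2, where Irf8 was at 1.95 times. Of 20 tested genes of this list, 14 rose and 3 fell in Mmrn1-high cells (median 0.83, or 0.55 on log2(FPKM + 1)), yet the summed level was lower there, at 1289 to 1401 CPM against 1499 to 1585 CPM, since the genes that fell were the most abundant. Those were Ly6c2, of classical monocytes, from 432 ± 36.6 to 112 ± 8.72 CPM, F13a1 from 394 ± 2.36 to 225 ± 5.36 CPM, and Cst3, of dendritic cells and macrophages, by 0.17 ± 0.03 SE on the log2 scale. The higher genes included Ctss, a lysosomal protease (1.13 ± 0.05 SE), Cd74, the invariant chain (1.62 ± 0.09 SE), and Klf4, a monocyte factor, from 11.5 ± 1.32 to 34.8 ± 1.02 CPM. The summed plasmacytoid dendritic cell markers were 69.6 to 70.7 CPM, and 93.9 to 99.3 CPM in Mmrn1-high libraries.

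Zeb2 (chromosome 2, 44983632 to 45117395) was 87.1, 87.4 and 98.6 CPM in Mmrn1-low replicates, and 91.7, 73.7 and 73.3 CPM in the Mmrn1-high ones. Mmrn1-high replicate 1 lay inside the Mmrn1-low range, so the groups overlapped. The log2 fold change was -0.20 ± 0.10 SE (edgeR adjusted p = 0.133), with a 95% interval from -0.44 to 0.04. Without Mmrn1-high replicate 1 it was -0.295 and passed (edgeR adjusted p = 0.00706). Without Mmrn1-low replicate 3 or Mmrn1-high replicate 2 it was -0.126 or -0.127, without both of these deeper libraries -0.070, and with library size alone -0.049, and none of these passed. Its paralogue Zeb1 rose from 27.3 ± 4.43 to 40.2 ± 4.74 CPM (0.55 ± 0.14 SE, edgeR adjusted p = 0.0117). Of the 5 closest relatives of these factors outside the C/EBP family (Gfi1b, Zeb1, Spib, Spic and Irf4), Gfi1b and Zeb1 were thus the 2 that rose, and 0 fell, while 4 were called higher with library size alone and 1 without Mmrn1-low replicate 2. Zeb2 shares 653 exon bases with its antisense gene Zeb2os, which had 570 counts over all libraries.

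Ratios between factors within a library do not depend on the scaling between libraries, and 6 were tested as log2 of FPKM with an exact two-sided permutation test, whose smallest p with 3 against 3 libraries is 0.1. Cebpa over Spi1 stayed close, at -1.06 ± 0.144 in Mmrn1-low and -1.15 ± 0.00471 in Mmrn1-high cells, a difference of -0.09 with overlapping groups (exact p = 0.4, adjusted p = 0.4 over the 6). Cebpa over Gfi1 went from -0.06 ± 0.151 to 1.20 ± 0.0612, so that Cebpa exceeded Gfi1 in Mmrn1-high cells on this scale. Gfi1 over Irf8 went from 2.02 ± 0.565 to -0.28 ± 0.493. Cebpb over Cebpa went from -0.21 ± 0.088 to 0.23 ± 0.0948, and Zeb2 over Zeb1 from 0.70 ± 0.148 to -0.06 ± 0.203. The lengths shift a ratio equally in every library, so its sign depends on them while the difference between groups does not. Per kilobase of merged exons, mean Cebpa exceeded Cebpb in Mmrn1-low (86.3 against 41.1) and Mmrn1-high cells (49.7 against 32.1). On that scale it also exceeded Gfi1 in Mmrn1-low cells (86.3 against 75.5). Spi1 over Gata1, a measure often used for the choice between myeloid and red cell fates, went from 4.79 ± 0.0796 to 3.51 ± 0.124, with Spi1 the higher of the pair in every library. For these last 5 ratios the groups did not overlap and the exact permutation p was 0.1, with an adjusted p of 0.12 over the 6.

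Factors of other fates, listed together with factors that act against one another, were mostly higher in Mmrn1-high cells. Of 24 tested genes of this list, 19 rose and 2 fell, with a median of 0.95 on the log2 scale. Those that rose included Sox4, a factor of early progenitors and lymphoid cells, from 137 ± 3.79 to 368 ± 9.56 CPM, and Jun, a bZIP partner of other AP-1 proteins, from 551 ± 22.6 to 1386 ± 16.5 CPM. The factors that fell were Myb, of cycling progenitors, from 876 ± 13.2 to 602 ± 9.26 CPM, and Klf1, of red cells, from 6.68 ± 0.444 to 4.32 ± 0.305 CPM. The list was not confined to other fates. Klf4, given above as a monocyte factor, and the stem cell genes Hoxa9 and Meis1 were among its genes that rose.

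Per length, the order of the 9 factors in Mmrn1-low cells was Spi1 (93.6 FPKM), Cebpe (93.2), Gfi1 (46.9), Cebpa (45.1), Cebpb (39.0), Cebpd (16.0), Irf8 (12.2), Cebpg (7.53) and Zeb2 (2.51). Spi1 and Cebpe, Gfi1 and Cebpa, and Irf8 and Cebpg were the neighbours whose libraries overlapped. In Mmrn1-high cells it was Spi1 (63.6), Cebpb (33.8), Cebpa (28.7), Cebpe (19.9), Irf8 (15.98), Gfi1 (12.5), Cebpg (11.1), Cebpd (7.80) and Zeb2 (2.43). There Irf8 overlapped with both its neighbours, Cebpe and Gfi1. By their means over merged exons, Cebpa passed Gfi1 in Mmrn1-low cells and passed Cebpb in Mmrn1-high cells, and Irf8 passed Cebpe in Mmrn1-high cells.

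The genes nearest in pattern to each factor were found by the root mean square difference of log2 CPM, each gene centred on its own mean, over the 6 libraries and 7046 well-expressed genes. They were Tuba8 (0.0659) and the iron exporter gene Slc40a1 (0.0699) for Cebpe, of which Slc40a1 is also in the macrophage marker list. They were Dstn (0.0397) and Mtus1 (0.0462) for Gfi1, Dennd11 (0.0428) and Med1 (0.0521) for Cebpa, and Sun2 (0.0552) and Kif20a (0.0575) for Cebpd. For Spi1 they were Gtf2f2 (0.0194) and Sec23ip (0.0195), for Cebpb Ralgapb (0.0188) and Snrpc (0.0294), for Cebpg Cast (0.0135) and Zmym2 (0.0208), and for Zeb2 Lrch4 (0.0448) and Heatr5b (0.0618). For Irf8 the distances were larger, 0.198 for Tnfaip3 and 0.208 for Tti1. With 6 libraries in 2 groups, nearness mostly reflects a like difference between the groups.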

How the data were processed

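RNA-seq counts of 6 libraries, 3 Mmrn1-low and 3 Mmrn1-high, were analysed, grouped by the sample titles. Stranded paired-end libraries of poly-A RNA were sequenced, per the labels' protocols. The authors' deposited table holds raw read counts per gene and FPKM values, per the file headers. CASAVA 1.8, HISAT2, StringTie and edgeR, and the build GRCm38, are listed in the submitters' processing notes without their roles. The deposited FPKM carries no correction for composition.

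Counts were tested with edgeR 4.0.16 (R 4.3.3): TMM factors, filterByExpr, robust quasi-likelihood fit, group as the only term, and Benjamini-Hochberg adjustment over all 15419 genes tested. SE is the absolute log2 fold change over the square root of F. The procedure was also run on simulated counts with few changed genes and a fixed dispersion. These settings differ from the data, so that run does not measure the error of the calls here. Alternatives used DESeq2 1.42.0, limma 3.58.1 on counts and on FPKM (pseudocounts 1 and 0.1, at least 1 FPKM in 3 libraries), other scalings and filters, a replicate block and libraries left out. Gene models were GENCODE M21. Python 3.11.15 made the tables and figures.

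The members and gene lists were chosen with earlier results of these data known, and the lists are described by counts without a set test. Named were all 9 factors, Mmrn1, up to 4 called genes per pathway list with the smallest p, genes of a count of 3 or fewer against a list's main direction, and the 2 genes nearest in pattern to each factor, leaving out predicted models; 1 gene so chosen is not reported here. Trib2, Kdm1a and Mta2 were named after their values were seen.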

Additional observations from a re-analysis of the deposited data

How the results depend on the processing

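The 7 factors that passed (Cebpa, Cebpb, Cebpd, Cebpe, Cebpg, Gfi1 and Spi1) kept their direction and call under all alternatives run. With a library left out, Irf8 ran from -0.13 to 0.44 (below 0 without Mmrn1-low replicate 3, -0.0068, or Mmrn1-high replicate 2), and it turned to -0.41 without both deeper libraries. Zeb2 passed without Mmrn1-high replicate 1 (-0.295). With limma on log2(FPKM + 1) and log2(FPKM + 0.1), 3019 and 3011 genes were called lower against 4701, and 61.2% of calls were higher, as were 66.01% with library size alone, against 50.2% with TMM. With library size alone, 7 genes of the list of C/EBP partners and Tribbles genes and 4 close relatives were called higher, against 4 and 2. Of the close relatives, 1 (without Mmrn1-low replicate 2) to 3 were called with a library left out, and 1 at an adjusted p under 0.01. The corepressor median turned positive with library size alone (0.148), no filter (0.0046), 5 CPM (0.039), FPKM (0.128 and 0.137), 4 of the 6 fits without a library (range -0.016 to 0.0191) and without both deeper libraries (0.013), and the PU.1 median with library size alone (0.013). The cause was not tested. Over merged exons, the C/EBP shares in Mmrn1-low and Mmrn1-high were 33.8% and 40.3% for Cebpa, 16.1% and 26.0% for Cebpb, 38.5% and 15.3% for Cebpe and 4.22% and 11.6% for Cebpg, with 6.71% for Cebpd in Mmrn1-high. Deviations of same-numbered libraries from their group means correlated at 0.043, -0.079 and 0.029 over all genes tested. For libraries of unlike number the values ran from -0.093 to 0.072. Counting noise weighs on such deviations from means of 3 libraries, so these values cannot decide whether same-numbered libraries shared a mouse or a sort. With the replicate block 8923 genes were called, and the calls of the 9 factors were as without it. Depth limits the genes near the filter most. Each of the 9 factors had at least 303 counts in every library, and the part of depth in the Irf8 values was not tested.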
